A study of Mus musculus with 2 samples.

Results

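Gene desert boundaries are the chromosome domain boundaries that lie far from any protein-coding gene. They were taken as the 5 kb bins of the deposited boundary list that were more than 100 kb from every protein-coding gene record of GENCODE release M21, and 1224 of the 7610 boundaries (16.1%) met that rule. The list came from in situ Hi-C, which joins and counts DNA sequences that lie close together in fixed nuclei, on the mouse build GRCm38. Flow cytometry was used to collect mature sensory neurons of the nose from the olfactory tissue of adult mice, with both sexes mixed and the strain not specified. Ldb1, which encodes a protein that joins transcription factors to one another, was deleted in these neurons by an OMP-Cre transgene, and Omp is switched on as olfactory neurons mature. There was 1 such group of 2 biological replicates of 1000000 cells each, fixed in 1% formaldehyde, and no control group was analysed here.

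A Hi-C boundary is a position that few contacts cross, so that the sequence on either side folds into separate neighbourhoods. Many boundaries form where cohesin, extruding a loop of chromatin, is halted by the DNA-binding protein CTCF, and others form at active promoters. Gene deserts are long stretches without protein-coding genes, often rich in A and T and in repeats. Some of them hold distant enhancers of the genes at their edges, frequently genes of development or of nerve cell adhesion.

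The submitters called the list on the pooled contacts of both replicates. Each value is therefore a single value without replicate error, and no difference between sets of boundaries could be tested. The 95% intervals given with shares, densities and medians cover counting error only and treat boundaries as independent, which neighbours are not. The strength is the authors' score for each bin, used here to describe and rank boundaries within this list, and the strong and weak classes are the authors' labels. A list of boundaries cannot show whether Ldb1 was lost or whether the sorted cells carried the markers of olfactory neurons.

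The desert boundaries that hold a CTCF consensus in their own bin show what these sites look like in sequence. There were 35 such boundaries, and the matches of 5 of the strongest are given first, as 60 bases of the GRCm38 RefSeq sequence on the strand of the match with the 12 bases of the consensus in capitals. Each set of bases is named by the protein-coding genes on either side.

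Tshz3 to Zfp536 (chr7:37360321-37360380, minus strand, boundary strength 2.24): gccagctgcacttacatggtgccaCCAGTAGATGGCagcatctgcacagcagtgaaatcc
Gpr158 to Myo3a (chr2:21941309-21941368, plus strand, 2.06): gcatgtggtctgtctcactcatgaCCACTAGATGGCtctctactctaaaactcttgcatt
Kcnj2 to Sox9 (chr11:111532632-111532691, minus strand, 1.83): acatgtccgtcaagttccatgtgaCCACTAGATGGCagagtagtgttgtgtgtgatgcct
Slc7a14 to Kcnmb2 (chr3:31769350-31769409, plus strand, 1.53): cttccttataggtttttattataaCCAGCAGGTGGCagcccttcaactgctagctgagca
Slc24a2 to Mllt3 (chr4:87368229-87368288, plus strand, 1.37): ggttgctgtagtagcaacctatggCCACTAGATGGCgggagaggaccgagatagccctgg

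The 3 weakest desert boundaries with a match in the bin, picked after their strengths were seen, are shown for contrast.

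Cdh12 to Cdh18 (chr15:21885361-21885420, plus strand, boundary strength 0.257): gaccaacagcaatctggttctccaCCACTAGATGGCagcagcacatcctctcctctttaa
Cdh18 to Basp1 (chr15:24059716-24059775, plus strand, 0.225): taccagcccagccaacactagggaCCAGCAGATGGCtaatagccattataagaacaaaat
Adamts18 to Nudt7 (chr8:113985016-113985075, minus strand, 0.221): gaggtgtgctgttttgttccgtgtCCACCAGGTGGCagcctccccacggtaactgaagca

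The spelling CCACTAGATGGC occurred in 3 of the 5 strong examples and in 1 of the 3 weak ones. Over all desert boundary bins it made up 5 of 20 matches in the strong class and 1 of 16 in the weak class, against 5.17% of the genome's matches. It was picked out from the printed examples, and other spellings were as unevenly split, such as CCAGCAGGGGGC with 3 strong and 0 weak and CCACTAGAGGGC with 0 strong and 4 weak. The most frequent spelling of the genome, CCAGCAGAGGGC (1997 matches), was found once in a strong desert boundary bin and 4 times in weak ones. A match is a sequence and not a measurement of bound CTCF.

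Desert boundaries were weak. Their strengths ran between 0.2001 and 2.76 with a median of 0.289 (95% interval 0.282 to 0.298), and the middle of the range (25th to 75th percentile) was 0.235 to 0.415. The other 6386 boundaries had a median of 0.614 (0.598 to 0.628), with 0.353 and 1.01 at the same percentiles. Of the desert boundaries 221 (18.1%, exact 95% interval 15.9 to 20.3%) were strong, against 3801 (59.5%, 58.3 to 60.7%) of the others and 52.9% of the whole list. The strong desert boundaries had scores of at least 0.503 and the weak ones of at most 0.499. Within the strong class the medians lay closer together, at 0.846 in deserts and 0.914 elsewhere, as they did within the weak class, at 0.267 and 0.318. The classes divide the list at a score near 0.5, which by itself draws the medians within a class together.

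The low end of the list was filled by deserts far more than the high end. Scores under 0.25 were held by 394 desert boundaries (32.2%) and by 655 others (10.3%). Scores of 1.5 or more were held by 36 desert boundaries (2.94%) and by 608 others (9.52%). In other terms, deserts held 37.6% of the 1049 boundaries under 0.25 and 5.59% of the 644 at 1.5 or more.

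Low strength was not shared by all boundaries outside genes. The 2877 boundaries outside genes but within 100 kb of one had a median strength of 0.631 and 59.99% strong. The 1016 boundaries wholly within introns had a median of 0.464 and 46.5% strong (43.4 to 49.6%), and the 747 whose bin held a protein-coding transcription start site (TSS) had a median of 0.659 and 64.0% strong. The interval of the desert share, 15.9 to 20.3%, lay below those of all 3 sets. The set outside genes but within 100 kb was not uniform. Its 2427 boundaries up to 50 kb from a gene had a median of 0.658 and 61.8% strong (59.9 to 63.8%). Its 450 boundaries at 50 to 100 kb had a median of 0.501, and 225 were strong (45.3 to 54.7%). Strength was therefore already lower before the 100 kb limit, and what lowers it was not tested.

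**Figure D1:**
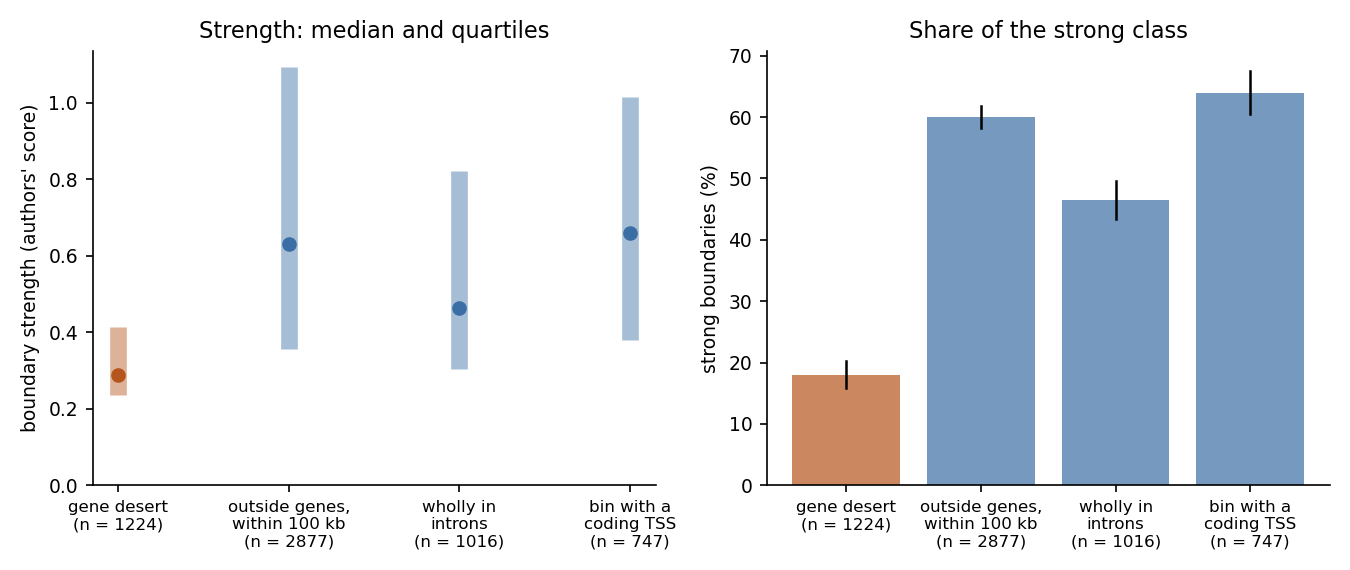
Boundary strength (left, authors' score, point for the median and band for the 25th to 75th percentile) and share of strong boundaries (right, percent, line for the exact 95% interval) in gene deserts and in 3 other places. Gene desert boundaries have the lowest median, 0.289, and the lowest strong share, 18.1%.

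The difference was present on every chromosome analysed. The median strength of desert boundaries was under that of the others on 20 of 20 chromosomes, and so was the share of strong ones. Desert medians ran between 0.248 on chromosome 8 and 0.348 on chromosome 17, a range that did not overlap that of the other boundaries (0.381 on chromosome X to 0.735 on chromosome 18). Chromosome 17 had the highest strong share in deserts (27.6%, 8 of 29 boundaries), and chromosome X the lowest (11.4%, 15 of 132).

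Strong boundaries were rare in deserts, while weak ones were on average about as dense there as elsewhere. Sequence meeting the desert rule covered 710 Mb, or 27.7% of the ungapped genome, and held 1.72 boundaries per Mb (exact 95% Poisson interval 1.63 to 1.82). The rest of the genome held 3.45 per Mb (3.37 to 3.54). Strong boundaries came to 0.311 per Mb in deserts (0.272 to 0.355) and 2.06 per Mb elsewhere (1.99 to 2.12), a ratio of 0.151. Weak boundaries came to 1.41 per Mb in deserts (1.33 to 1.502) and 1.40 per Mb elsewhere (1.34 to 1.45), a ratio of 1.01. Outside deserts the weak density varied. It was 1.29 per Mb in genes, 1.71 up to 50 kb from one and 1.17 at 50 to 100 kb. The list carries no score under 0.2001, so boundaries below that level are not counted on either side.

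Distance to the nearest gene graded the strong class within the deserts themselves. At 100 to 200 kb from a gene 33.2% of 346 boundaries were strong (28.3 to 38.5%), at 200 to 500 kb 14.6% of 493 (11.6 to 18.04%), at 500 to 1000 kb 10.8% of 259 (7.30 to 15.2%) and beyond 1000 kb 4.76% of 126 (1.77 to 10.1%). The density of strong boundaries in these bands was 0.536, 0.254, 0.191 and 0.0920 per Mb. The density of weak ones ran the other way, at 1.08, 1.48, 1.57 and 1.84 per Mb. The total density therefore changed little, between 1.61 per Mb (1.45 to 1.79) and 1.93 per Mb (1.61 to 2.30). Over the 1224 desert boundaries Spearman's rho between strength and distance was -0.225, a description over sites that share deserts and base composition.

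At the 100 kb limit itself the scores were mixed. Just inside it were boundaries between Zfp462 and Rad23b (100.04 kb from the nearer gene, strength 0.646), between Ahr and Agr3 (100.6 kb, 0.903) and between Lrriq3 and Negr1 (100.7 kb, 0.217). Just outside were those between Garem1 and Klhl14 (99.9 kb, 1.11), Emc2 and Tmem74 (99.6 kb, 0.284) and Tex29 and A230072I06Rik (99.2 kb, 1.69).

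**Figure D2:**
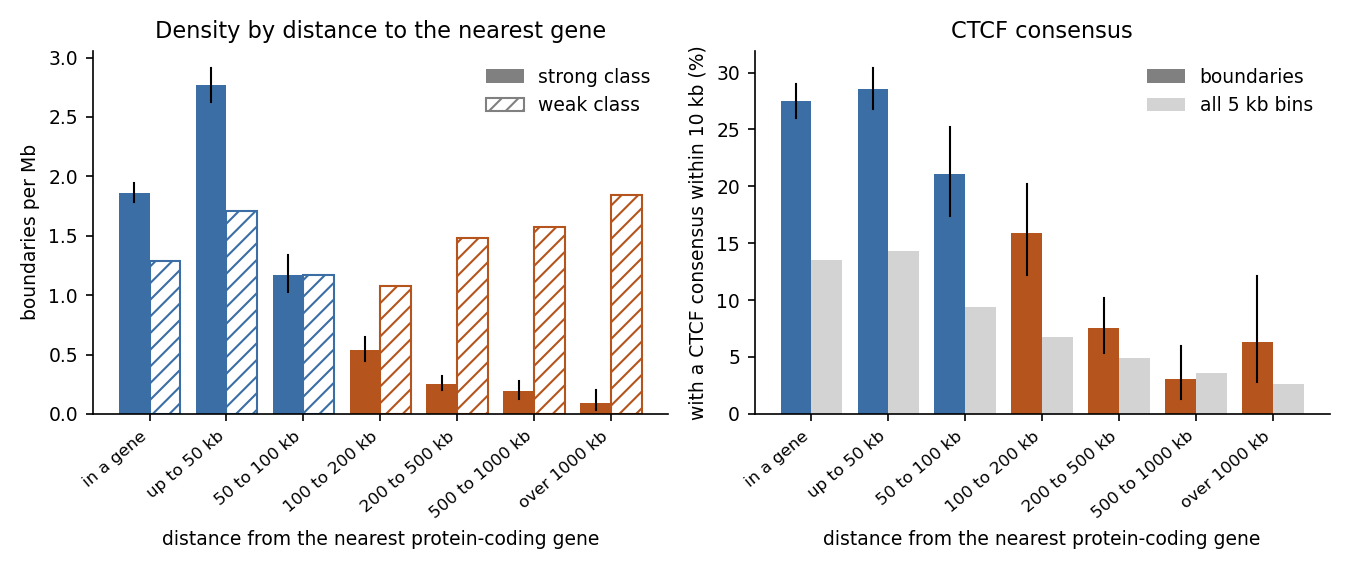
Left, strong and weak boundaries per Mb of ungapped sequence in 7 bands of distance from the nearest protein-coding gene, with exact 95% Poisson intervals on the strong class. Right, share of boundaries (with exact 95% interval) and of all 5 kb bins that have a CTCF consensus within 10 kb. Desert bands are in orange, and strong boundaries fall from 0.536 to 0.0920 per Mb across them.

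Base composition moved with the same bands. The GC content of all bins was 40.6% at 100 to 200 kb and 36.9% beyond 1000 kb, against 43.0% inside genes. Desert boundary bins had a median GC of 38.5%, close to the 38.8% of all desert bins, and 34.0% of their bases were soft-masked repeats at the median, against 32.7% in all desert bins. The bins of the other boundaries had 43.6% GC and 26.6% repeats. A role of base composition was not tested, and the lowest and highest of the 6 GC bands used were open-ended. In each of these bands the strong share was lower in deserts. Between 40 and 42% GC it was 23.7% (17.7 to 30.4%) of 186 desert boundaries and 57.8% (54.6 to 61.0%) of 951 others, and under 36% GC it was 5.39% (2.90 to 9.05%) of 241 and 29.4% (23.2 to 36.2%) of 201. Above 44% GC it was 38.1% (29.1 to 47.7%) of 113 desert boundaries and 65.7% (64.0 to 67.4%) of 2983 others.

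The cutting site of the Hi-C enzyme had the same median count in both. DpnII cuts GATC, and both desert boundary bins and the other boundary bins held a median of 12 such sites. The palindromic core site of Ebf factors, which act with Ldb1 at olfactory receptor enhancers, was in 65 desert boundary bins (5.31%, 4.12 to 6.72%), against 5.55% of all desert bins. In the other boundary bins its share was 9.80% (9.08 to 10.6%), against 9.05% of all bins outside deserts.

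CTCF matches were scarce in deserts, and strong desert boundaries had them more often than desert bins at large. A CTCF consensus lay within 10 kb of 108 desert boundaries (8.82%, 7.29 to 10.6%) and of 1752 others (27.4%, 26.3 to 28.5%), with 24.4% in the whole list. All 5 kb bins had it less often, at 5.00% in deserts and 13.3% elsewhere. Of the strong desert boundaries 47 of 221 (21.3%, 16.1 to 27.3%) had a match within 10 kb, a share 4.25 times that of all desert bins. Of the weak ones 61 of 1003 (6.08%, 4.68 to 7.74%) had one, 1.22 times the desert bins. Of the 221 strong ones 115 stood 100 to 200 kb from a gene, where 6.78% of bins had a match. The median GC was 40.5% in strong desert boundary bins, 38.1% in weak ones and 38.8% in all desert bins. Among desert boundaries the share with a match rose from 1.66% under 36% GC to 25.7% above 44% GC. A role of GC content in these shares was not tested. Among the other boundaries 32.6% (31.2 to 34.2%) of strong and 19.8% of weak ones had one, 2.45 and 1.48 times the bins outside deserts. Strong boundaries thus had a match within 10 kb less often in deserts than elsewhere. In the bin itself the shares of strong boundaries were 8.60% in deserts and 8.29% elsewhere. Of all bins, 1.04% in deserts and 2.95% elsewhere held a match. The strong shares were thus 8.26 and 2.81 times those of bins. Desert boundaries with a match within 10 kb had a median strength of 0.446 and 43.5% strong, and the 1116 without one had 0.282 and 15.6%.

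With distance from genes the matches thinned in bins, and at boundaries as far as 1000 kb. At 100 to 200 kb 15.9% of boundaries had a match, against 6.78% of bins, and at 200 to 500 kb 7.51%, against 4.93%. At 500 to 1000 kb 8 of 259 boundaries had one (3.09%, 1.34 to 5.995%), against 3.61% of bins. Beyond 1000 kb 8 of 126 had one (6.35%, 2.78 to 12.1%), against 2.62%, and the intervals of these last bands overlapped. None of the 126 boundaries beyond 1000 kb had a match in its own bin. Only 0.529% of all bins at that distance held one, so the count is too small to set them apart.

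The strand of the matches was arranged around desert boundaries as around the others. Of 369 matches within 50 kb of a desert boundary and outside its bin, 244 (66.1%, 61.0 to 70.9%) pointed away from it, against 3738 of 5617 (66.5%, 65.3 to 67.8%) at the other boundaries. Reverse matches made up 133 of 192 to the left of a desert boundary, and forward matches 111 of 177 to its right. The share was 68.8% (60.9 to 75.9%) at strong and 64.2% (57.3 to 70.6%) at weak desert boundaries. A match can be counted for more than 1 boundary.

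**Figure D3:**
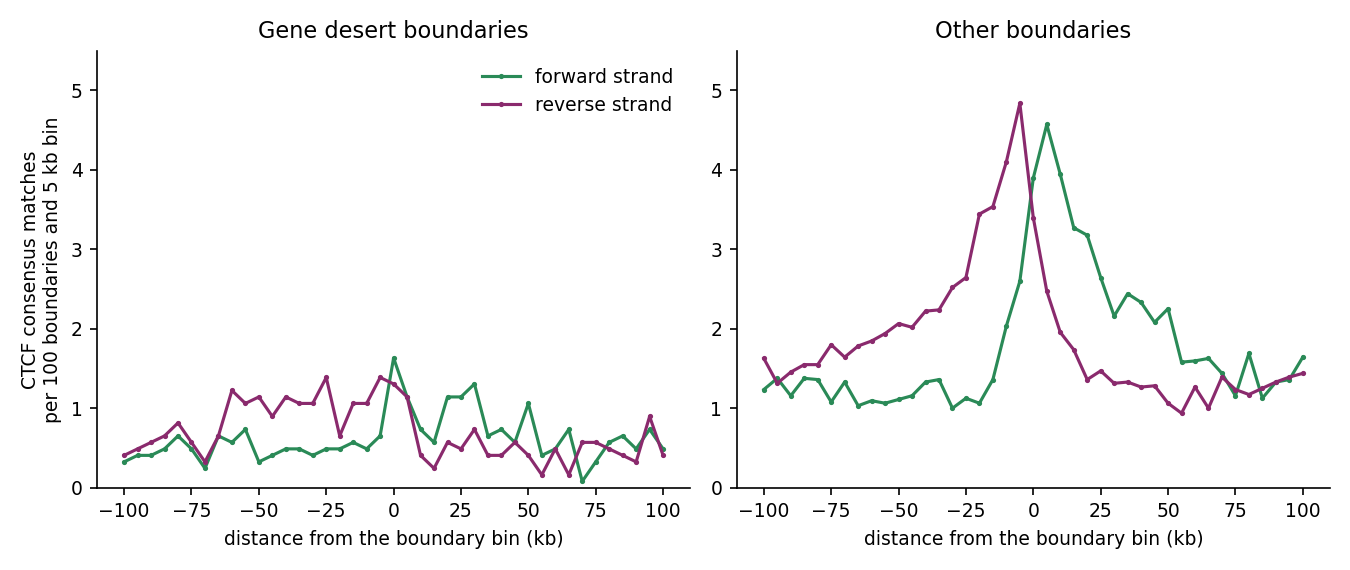
CTCF consensus matches per 100 boundaries in each 5 kb bin (y axis) against distance from the boundary bin in kb (x axis), by strand, for gene desert boundaries (left) and the other boundaries (right). Both show more reverse matches on the left and more forward matches on the right, at a far lower level in deserts.

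Desert boundaries stood farther from their neighbours. The distance to the neighbouring boundary, taken on both sides, had a median of 380 kb (95% interval 365 to 395 kb) and quartiles of 245 and 580 kb, against 250 kb (245 to 255 kb) and 180 and 365 kb for the other boundaries. The median was longer on 20 of 20 chromosomes. Strong and weak desert boundaries had the same median, 380 kb. When neighbours were sought within the strong class alone, the median was 815 kb for desert boundaries and 380 kb for the others. Within the weak class alone the order was reversed, at 505 kb for desert boundaries and 540 kb for the others.

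The intervals between boundaries fell into 3 main kinds. In 597 intervals both ends were desert boundaries with no protein-coding gene between them, and these had a median length of 330 kb (310 to 355 kb), ran between 75 and 1755 kb and summed to 241 Mb. Another 1139 intervals had 1 end in a desert, with a median of 405 kb (390 to 420 kb). The 5798 intervals with no desert end had a median of 240 kb (235 to 245 kb). Lengths of 800 kb or more made up 8.88% (6.72 to 11.5%) of the gene-free desert intervals, 11.2% (9.46 to 13.2%) of those with 1 desert end and 2.59% (2.19 to 3.03%) of those with none. The remaining 56 intervals had a desert boundary at both ends and a coding gene between, with a median of 718 kb.

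**Figure D4:**
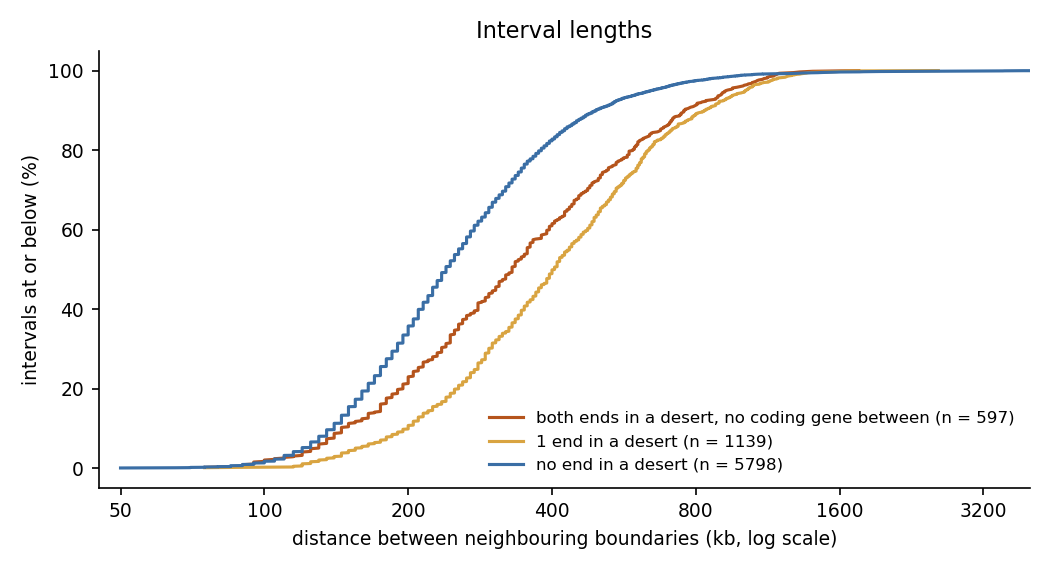
Cumulative share of intervals (percent) against the distance between neighbouring boundaries (kb, log scale) for 3 kinds of interval. The curves with a desert end lie to the right of the curve with none, with medians of 330 and 405 kb against 240 kb. The longest intervals are off the axis.

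The 3 longest intervals beside a desert boundary were on chromosome X. Between Nap1l3 and 4932411N23Rik on chromosome X the boundaries were 3480 kb apart, with 14 coding genes between and 14.4% of the sequence in assembly gaps. Next came 2575 kb between Lrch2 and Tmem29 and 1800 kb between Xlr and 3830403N18Rik, both also on chromosome X, the second with 8.33% in gaps. An interval of 1680 kb between Sall2 and Dad1 on chromosome 14 held 7 coding genes and 113 immunoglobulin or T cell receptor segments, which GENCODE does not class as protein-coding genes.

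Along the genome 1483 deserts met the rule, 1463 of them between a pair of neighbouring protein-coding genes and 20 at chromosome ends. Desert boundaries lay in 627 of them (42.3%), with 1 boundary in 361 deserts, 2 in 128, 3 or 4 in 92, 5 to 9 in 43 and 10 in 3. A strong boundary was present in 212. Deserts between genes had a median length of 439 kb, or 834 kb where they held a boundary and 315 kb where they held none. Of 270 longer than 1 Mb, 22 held no boundary more than 100 kb from a gene. The longest of these, also named after the values were seen, lay between Ywhaq and Gm10330 (2361 kb), Ttll7 and Adgrl2 (1832 kb) and Slc4a3 and Epha4 (1805 kb).

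Longer deserts held more boundaries but fewer strong ones for their number. In a desert of up to 400 kb no bin is more than 200 kb from a gene. The grading by length is therefore not separate from the grading by distance given above. Deserts of 205 to 400 kb held 77 boundaries, 42.9% of them strong (31.6 to 54.6%). The strong share was 30.0% of 260 at 400 to 800 kb, 14.9% of 403 at 800 to 1600 kb, 10.5% of 334 at 1600 to 3200 kb and 8.78% of 148 beyond that (4.76 to 14.6%). The density per Mb of qualifying sequence was 1.49, 1.67, 1.73, 1.74 and 1.97 in the same order, and its interval at the shortest (1.17 to 1.86) overlapped that at the longest (1.66 to 2.31). By the direction of the flanking genes, 19.6% of 367 boundaries were strong where both start sites faced the desert, 18.2% of 247 where both gene ends did and 16.8% of 608 where the genes shared a strand.

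The 3 deserts with 10 boundaries each had a single strong one among 9 weak ones. Between the protocadherin genes Pcdh20 and Pcdh9 on chromosome 14 (88471397 to 93013409, 4542 kb) the strong boundary had a strength of 1.28 and stood 534 kb from Pcdh20, while the other strengths ran between 0.202 and 0.431. Between Cntnap5b and Cdh20, both genes of cell adhesion, on chromosome 1 (100485943 to 104768528, 4283 kb) it had 1.53 and stood 874 kb from Cdh20, with the others at 0.208 to 0.349. Between Hace1, a ubiquitin ligase gene, and Grik2, a kainate receptor gene, on chromosome 10 (45712346 to 49094832, 3382 kb) it had 0.555, with the others at 0.201 to 0.391. The desert between Stim2 and Pcdh7 on chromosome 5 had 9 boundaries, all weak (0.201 to 0.448). The longest desert, between the teneurin gene Tenm3 and Aga on chromosome 8 (4668 kb), had 8, all weak (0.205 to 0.477). The next longest between genes after Pcdh20 to Pcdh9 were Celf4 to Pik3c3 (4519 kb, 6 boundaries, none strong) and Olfm4 to Pcdh17 (4420 kb, 7 boundaries, 1 strong at 1.33).

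**Figure D5:**
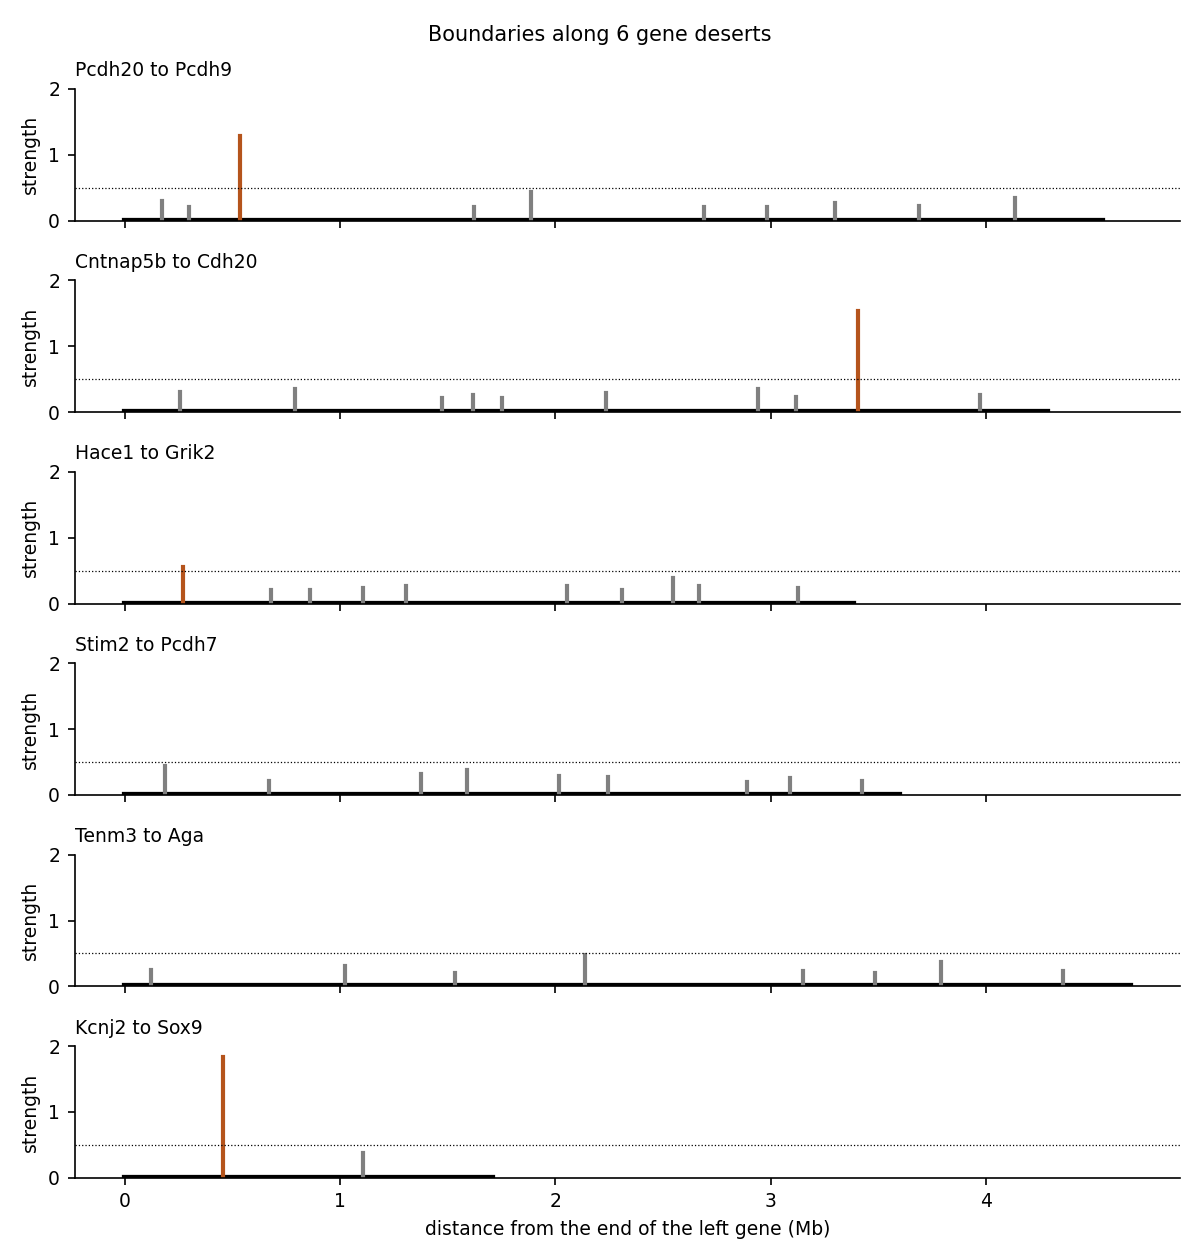
Boundary strength (authors' score) along 6 deserts against distance from the end of the left gene in Mb. Black bars span the desert, orange lines are strong and grey lines weak boundaries, and the dotted line marks a score of 0.5. The first 3 deserts have 1 strong boundary each, at 1.28, 1.53 and 0.555, and the Kcnj2 to Sox9 desert has 1 at 1.83.

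The desert between Kcnj2, a potassium channel gene, and Sox9, a regulator of cartilage and testis development, is described further because of its strength, seen in these data. It is known for distant Sox9 enhancers and for a boundary that separates the contacts of both genes in other tissues. Here it ran over 1705 kb of chromosome 11 (111076822 to 112782223) and held 2 boundaries. The strong one (111530001 to 111535000, strength 1.83) stood 453 kb from Kcnj2 and 1247 kb from Sox9, with the CTCF consensus printed among the sequences in its bin, and it ranked 16th among desert boundaries. The weak one (0.383) stood 597 kb from Sox9. Both deserts beside the growth regulator Myc, singled out after their values were seen, held a boundary: a strong one (1.59) 885 kb from the gene on the side of A1bg, with a consensus within 10 kb, and a weak one (0.230) on the side of Gsdmc.

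The strongest desert boundary was at chromosome 6, 130985001 to 130990000 (strength 2.76, rank 23 of the whole list), between Klra1 and Klra2, receptor genes of natural killer cells. It stood 229 kb from Klra2, had no CTCF consensus within 10 kb and had pseudogenes Gm44133 and Gm44989 nearby. The next (2.61; chromosome 12, 115590001 to 115595000) lay between Adam6a and Zfp386 beside the immunoglobulin heavy chain segments Ighv1-66 and Ighv1-67. Then came the boundaries between Tshz3 and Zfp536, zinc finger genes (2.24; chromosome 7, 37360001 to 37365000), and between Sall3, a transcription factor gene, and the galanin receptor gene Galr1 (2.17; chromosome 18, 81940001 to 81945000).

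The other 6 of the 10 strongest had strengths between 1.97 and 2.11. They lay between Slc30a8, a zinc transporter gene, and Med30, a Mediator subunit gene (2.11), between the potassium channel gene Kcnj3 and the nuclear receptor gene Nr4a2 (2.06), and between the orphan receptor gene Gpr158 and the myosin gene Myo3a (2.06). The remaining ones lay between Ctnna3, a catenin gene, and Reep3 (2.04), before Gdi2 at the start of chromosome 13 (1.999) and between Gata6, a factor of endoderm and heart development, and Rbbp8 (1.97). Of these 10 boundaries 2 had a CTCF consensus in the bin and 3 within 10 kb, 4 had a pseudogene within 10 kb, and 5 were within 200 kb of a coding gene. Among all 221 strong desert boundaries the first 3 shares were 8.60%, 21.3% and 14.5%, and 115 were within 200 kb of a coding gene. Counts among 10 boundaries are too small to set them apart from that class.

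The boundaries farthest from any coding gene were weak. The farthest was 2136 kb from Tenm3 and 2527 kb from Aga (strength 0.477; chromosome 8, 50980001 to 50985000). The next 4 lay between Celf4 and Pik3c3 (0.377), Cntnap5b and Cdh20 (0.291), Olfm4 and Pcdh17 (0.221) and Slc39a10 and Tmeff2 (0.289). The median distance of a desert boundary to its nearest gene was 322 kb, and 385 of 1224 (31.5%) were more than 500 kb away.

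The genes that flanked desert boundaries were long, and adhesion genes of nerve cells were common among them. In all 1130 protein-coding genes (5.19% of 21755) were the nearest on the left or right of a desert boundary. Their median length was 57.001 kb, against 17.4 kb for all protein-coding genes. Counts below are set beside the boundaries outside genes but within 100 kb of one. Lists go by gene symbol, and several boundaries can share 1 flanking gene. Longer deserts held more boundaries, so a gene beside a long desert is counted more often. The share of desert sequence beside each list of genes was not measured.

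Adhesion genes of neurons, such as cadherins, protocadherins, contactins and Slitrk genes, flanked 243 desert boundaries (19.9%, 17.7 to 22.2%) in 71 deserts, against 4.07% (3.37 to 4.85%) of the boundaries closer to genes. They made up 0.869% of protein-coding genes and 4.96% of the genes flanking desert boundaries. These boundaries had a median strength of 0.275 and 11.5% strong (7.79 to 16.2%), with the strongest between Cdh18 and Basp1, a gene of the growth cone (1.93), and between Slitrk1 and Slitrk6 (1.89). Genes of 500 kb or more flanked 293 desert boundaries (23.9%, 21.6 to 26.4%), against 8.76% (7.75 to 9.85%) of those closer to genes, and 11.9% of them were strong. The strongest was the one between Ctnna3 and Reep3.

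Transcription factors of development flanked 118 desert boundaries (9.64%, 8.04 to 11.4%), against 8.45% (7.46 to 9.52%) closer to genes, and the intervals overlapped. Of these 118, 18.6% (12.1 to 26.9%) were strong, led by the boundaries at Tshz3 and Sall3. Axon guidance genes flanked 55 (4.49%, 3.40 to 5.81%), against 1.88% (1.41 to 2.44%), with the ephrin receptor genes Epha5 (1.56) and Epha7 (1.18) at the strongest. Ion channel and transmitter receptor genes flanked 77 (6.29%, 4.996 to 7.80%), against 4.69% (3.95 to 5.53%), led by Kcnj3 and Kcnj2. Secreted signals flanked 8 (0.654%), against 1.53%, led by Fgf20 (1.12) and the neuregulin gene Nrg3 (0.806). Genes with predicted names flanked 164 (13.4%, 11.5 to 15.4%), against 10.8% (9.70 to 12.002%), with 4930452B06Rik (1.71) and Gm10750 (1.46) at the strongest.

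Chemoreceptor genes hardly bordered desert boundaries. Only genes at the edge of a desert can flank such a boundary, so these low counts depend on the rule as well. Olfactory receptor genes made up 5.22% of protein-coding genes and 0.265% of the genes flanking desert boundaries. They flanked 4 desert boundaries (0.327%, 0.0891 to 0.835%), against 2.09% (1.60 to 2.68%) of the boundaries closer to genes. The strong one lay between Olfr1324 and Stk26 on chromosome X (1.90), 112 kb from the receptor gene, with a weak one 105 kb farther on (0.455). The others were weak and lay between Gvin1 and Olfr693 (0.238) and between Olfr1507 and Dad1 (0.399). The boundary at Dad1 stood 1534 kb from Olfr1507 and 200 kb from Dad1. It ended the interval with 113 immunoglobulin or T cell receptor segments, which the rule does not count as genes. Vomeronasal receptor genes, which serve pheromone detection, flanked 1 (0.0817%), between Vmn2r96 and Vmn2r97 (0.308), against 1.32% (0.936 to 1.81%) of the boundaries closer to genes. Ebf1, a partner of Ldb1 at olfactory receptor enhancers, flanked 1 weak boundary 542 kb away on the side of Clint1 (0.499), and Ldb2, the relative of Ldb1, flanked 1 weak boundary 480 kb away (0.280). Among genes of LIM domain proteins, Lmo4 flanked 3 weak boundaries on the side of Pkn2 (0.239, 0.484 and 0.207). Lmo7 flanked 3 on the side of Kctd12, of which 1 was strong (0.654) and the others were weak (0.249 and 0.361). The genes of these last 3 sentences were chosen after their values were seen.

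Other types of gene record were about as common near desert boundaries as in desert sequence at large. Of the 1224 boundaries 255 (20.8%, 18.6 to 23.2%) were more than 100 kb from every GENCODE gene record, against 21.2% of desert sequence. A long intergenic (lincRNA) or antisense RNA gene lay within 10 kb of 157 desert boundaries (12.8%, 11.0 to 14.8%), against 13.4% of all desert bins, and within 10 kb of 954 others (14.9%, 14.1 to 15.8%). Their start sites lay within 10 kb of 73 desert boundaries (5.96%, 4.70 to 7.44%) and 5.28% of desert bins. At the other boundaries these start sites were at 10.5% (9.75 to 11.3%), against 8.29% of bins. Pseudogenes were within 10 kb of 32 strong (14.5%, 10.1 to 19.8%) and 89 weak desert boundaries (8.87%, 7.19 to 10.8%), against 10.5% of all desert bins. A miRNA gene was within 10 kb of 6 (0.490%), against 3.01% of the other boundaries and 0.824% of desert bins.

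A small number of desert boundaries lay at antigen receptor loci and enhancers, and their flanking genes were named after the values were seen. Immunoglobulin or T cell receptor segments lay within 10 kb of 12 desert boundaries (0.980%, 0.508 to 1.71%), near the 0.777% of all desert bins, and 6 of the 12 were strong. Of the 12, 8 lay between Adam6a and Zfp386 on chromosome 12 (Ighv segments), with strengths between 0.305 and 2.61. RefSeq enhancers lay within 10 kb of 5 desert boundaries (0.408%, 0.133 to 0.951%), near the 0.458% of all desert bins. These 5 were weak, as were 1003 of the 1224, and lay between Jun and Fggy (0.352), Npvf and Nfe2l3 (0.262), Etnk1 and Sox5 (0.494), Sall1 and Tox3 (0.226) and Bbs9 and Bmper (0.471).

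Chromosome X had the densest desert boundaries, of which 117 of 132 were weak. It held 132 of its 424 boundaries (31.1%) in deserts, or 2.45 per Mb of desert sequence (2.05 to 2.91). Autosomes together had 1.66 per Mb (1.57 to 1.77). The highest single autosome was chromosome 1 at 1.90 (1.57 to 2.29), and its interval overlapped that of chromosome X. The desert density of chromosome X was close to the 2.66 per Mb (2.37 to 2.99) of the rest of that chromosome. Weak desert boundaries came to 2.17 per Mb (1.80 to 2.61), against 1.69 (1.45 to 1.95) in the rest of chromosome X and 1.35 (1.26 to 1.44) in autosomal deserts. Strong ones came to 0.279 per Mb (0.156 to 0.460), against 0.975 (0.799 to 1.18) elsewhere on chromosome X and 0.314 (0.272 to 0.360) in autosomal deserts. The distance between desert boundaries and their neighbours had a median of 300 kb on chromosome X and 390 kb on autosomes. The strongest on chromosome X after that at Olfr1324 lay between Cnksr2 and Rps6ka3 (1.08), with a CTCF consensus in its bin, and between Cldn34d and Tbl1x (0.830).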

How the data were processed

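The labels' design text states that contact pairs of 2 biological replicates were combined into 1 matrix on GRCm38, from which boundaries were called. For the caller, its version and its window, nothing is stated by the sources used here, and depth is unknown. The deposited strength score and class of each 5 kb bin were used as the authors gave them. Bins were set against GENCODE M21 genes, the GRCm38 sequence and functional elements of RefSeq. Distance is the number of bases between a bin and a gene record. Neighbour distances run between bin starts. Bins with more than 50% assembly gap were left out of lengths. The CTCF consensus of 12 bases had 12728 matches on both strands. Intervals are exact binomial or Poisson intervals, and those of medians come from order statistics. The distance code was tested on simulated data. Versions were scipy 1.17.1, numpy 2.4.6, pandas 2.3.3, Python 3.11.15 and, for figures, matplotlib 3.10.9.

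Members and lists were chosen with earlier results of these data known. Named genes flank the 10 strongest and 5 farthest boundaries, the deserts with most boundaries and the longest ones, the 5 longest intervals (1 is not reported here), the 3 boundaries on either side of the distance limit, the 2 strongest boundaries of each of 9 lists and those with a printed sequence (the 5 strongest with a consensus in the bin, chromosome 18 left out). No replicate could be compared, so no test was run.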

Additional observations from a re-analysis of the deposited data

How the results depend on the processing

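No paired analysis was possible because the study has a single group, and leaving out either replicate needs lists per replicate, which were not used here. The list fixes a lower limit of strength, and depth behind each boundary is unknown. Leaving out genes with predicted names, adding immunoglobulin and T cell receptor segments or keeping autosomes alone moved no median, share or density beyond its interval. The number of desert boundaries, for which no interval is given, was 1289, 1208 and 1092 in these settings. With limits of 50, 200 and 500 kb the median strength was 0.316, 0.279 and 0.275, the strong share 26.6, 12.1 and 8.83%, and the share with a CTCF consensus 12.1, 6.04 and 4.16%. At 50 kb there were 1674 boundaries, the density was 1.86 per Mb and the neighbour distance 355 kb. At 200 kb there were 878 boundaries. At 500 kb there were 385 boundaries, the distance was 445 kb and the lincRNA share 7.53%. With gap bins counted the density was 1.58 per Mb. In the bin alone the CTCF share was 2.86% and the lincRNA share 8.99%, against 7.17% for other boundaries, which turned that order, and within 25 kb the CTCF share was 15.6%. Strong boundaries alone numbered 221, with a median of 0.846, 0.311 per Mb, a distance of 815 kb, a CTCF share of 21.3% and a lincRNA share of 15.4%. Weak ones alone had 0.267, 1.41 per Mb, 6.08% with CTCF and a distance of 505 kb, against 540 kb for weak boundaries elsewhere, which also turned the order. Of 46 comparisons with other boundaries 44 kept their direction. A rule using every GENCODE gene record, added after seeing the data, gave 255 boundaries with a median of 0.279, 12.2% strong, a distance of 400 kb, 4.71% with CTCF and 0% with a lincRNA, which that rule removes.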
